A study of Mus musculus with 8 samples.

Results

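Glutathione transferases and antioxidant target genes of the transcription factor NRF2 were followed on 8 mouse gene expression arrays from Agilent, each read in a red (Cy5) and a green (Cy3) channel. The group had 10 genes. They were chosen by their log2 differences between treated and untreated arrays, which had already been seen, so every such difference below is a description without a test. The group held 3 alpha-class transferases (Gm10639, Gm3776 and Gsta4), 2 mu-class transferases (Gstm1 and Gstm2) and 5 genes of NRF2's antioxidant programme (Nqo1, Hmox1, Gclm, Srxn1 and Txnrd1). The genes were found through the accession that each file gives for a probe, and 15 of 39429 probes, and 10 of 32395 gene names, belonged to them. Each array held 3T3-L1 cells (3T3L-1 in the labels), a mouse embryonic fibroblast line used as a model of pre-adipocytes, or RAW264.7 cells, a mouse macrophage-like line. The lines had shared a transwell co-culture for 48 h. RNA came from the lower well only, so each line was taken from a set-up of its own, with the other line in the insert and other cell numbers. Each line had 1 array with 100 µM cortisol, 1 with 100 µM serotonin, 1 with cortisol-serotonin (100 µM of each by the labels, while the methods give a single dose) and 1 untreated. The hormone stocks were made in DMSO. Sample RNA was labelled with Cy5 and a common reference with Cy3. The labels describe the reference as a mix of all samples and the methods as pooled untreated cells of both lines grown alone. It cancels where an untreated array is subtracted from a treated one, as far as its signal was measured alike on both arrays.

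NRF2 is held at a low level by KEAP1, which passes it on for degradation. When oxidants or electrophiles modify KEAP1, NRF2 accumulates, pairs with a small MAF protein and binds the antioxidant response element near its target genes. Those targets make and use glutathione, keep thioredoxin reduced, detoxify quinones and break down haem. Glutathione transferases join glutathione to electrophiles, the alpha class also to products of lipid peroxidation.

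The members that moved most were Gm10639 and Gm3776, alpha-class transferase genes that lie close together on chromosome 9, with Gsta1 and Gsta2 as the nearest other transferase genes on either side in the RefSeq gene table. Their promoters are printed because the genes moved together and the sequences show how near they are to copies of each other. Both lines run 5′ to 3′ over 250 bases before and 50 bases after the gene start, from RefSeq on build GRCm38.p6, and capitals mark bases that are mismatched or unpaired between them.
Gm10639, chr9:78289678-78289977, plus strand: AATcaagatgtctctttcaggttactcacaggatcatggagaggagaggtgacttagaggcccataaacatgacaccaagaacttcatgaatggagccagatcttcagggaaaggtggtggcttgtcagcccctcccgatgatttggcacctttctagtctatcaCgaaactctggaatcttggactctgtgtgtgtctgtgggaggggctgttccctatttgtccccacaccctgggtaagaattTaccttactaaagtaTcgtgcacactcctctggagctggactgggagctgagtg
Gm3776, chr9:78256879-78257178, plus strand: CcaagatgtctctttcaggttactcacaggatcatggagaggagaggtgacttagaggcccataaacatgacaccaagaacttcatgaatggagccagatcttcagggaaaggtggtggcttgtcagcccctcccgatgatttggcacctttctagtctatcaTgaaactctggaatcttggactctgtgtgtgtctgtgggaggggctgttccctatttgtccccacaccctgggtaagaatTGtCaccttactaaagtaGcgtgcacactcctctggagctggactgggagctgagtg

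In a global alignment 294 bases of the 2 windows were identical, 4 were mismatched and 4 were unpaired. The same alignment gave 279 identical bases between Gm10639 and Gsta1, 284 between Gm3776 and Gsta1 and 218 between Gm10639 and Gsta2. Gm10639 and Gm3776 are reported as a pair, since a probe of one may also bind transcripts of the other or of Gsta1. They may thus not be separate measurements where they are counted as 2 members. Promoter windows cannot settle this, and the probe sequences were not used here.

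The core of the antioxidant response element was searched as TGACNNNGC on both strands (GCNNNGTCA on the other) in 11 promoter windows of the 8 members with an entry. It was found in 3 of these windows, those of Gclm, Srxn1 and 1 of 3 windows of Txnrd1, while 12.4% of all 32851 promoter windows of that length hold it. A match in letters is a description and was not tested as a binding site. The stretches around the matches are shown with the match in capitals, because these genes are the glutathione, sulfiredoxin and thioredoxin members described below.
Gclm, from chr3:122245307-122245606, plus strand: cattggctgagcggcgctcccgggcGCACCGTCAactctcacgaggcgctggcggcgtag
Srxn1, from chr2:152105274-152105573, plus strand: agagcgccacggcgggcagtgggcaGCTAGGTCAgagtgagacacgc
Txnrd1, from chr10:82858956-82859255, plus strand: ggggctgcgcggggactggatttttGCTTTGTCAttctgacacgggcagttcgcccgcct

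Gm10639 had median Cy5 signals of 760 scanner units on the cortisol array of 3T3-L1 cells, 351 with serotonin, 267 with cortisol-serotonin and 712 on the untreated array. After background correction and normalization, its log2 ratios to the reference were 2.76 with cortisol, 1.24 with serotonin, 0.74 with cortisol-serotonin and 2.16 in untreated cells. The cortisol array was highest and the cortisol-serotonin array lowest. Gm3776 followed the same order, with log2 ratios of 2.60 with cortisol, 0.98 with serotonin, 0.71 with cortisol-serotonin and 1.97 in untreated cells. In RAW264.7 cells neither gene was well above background in Cy5 on any array, where the signals were 38 to 61 units for Gm10639 and 45 to 60 units for Gm3776. A second probe of Gm10639 was not above background on any of the 8 arrays.

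**Figure D1:**
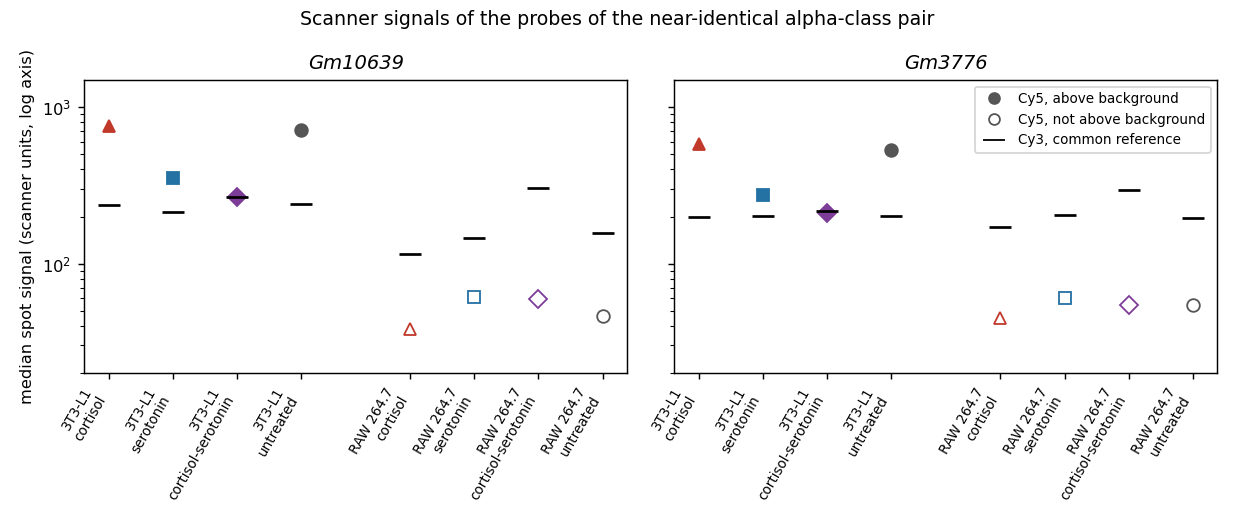
Median spot signal (scanner units, log axis) of the measured probe of Gm10639 and of the probe of Gm3776 on each array; symbols are the Cy5 sample channel, filled where above background, and black dashes the Cy3 reference. In 3T3-L1 cells the Cy5 signal of Gm10639 was 267 units with cortisol-serotonin and 712 in untreated cells, and no RAW264.7 array was above background.

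Under cortisol-serotonin, 2 of 10 members were at least 2-fold lower in treated than in untreated 3T3-L1 cells, against 0.642% of all 13400 genes measured on both arrays. No member was 2-fold higher, against 0.784% of all genes. The lower ones were Gm10639, with a log2 difference of -1.42 ± 0.43, and Gm3776, with -1.26 ± 0.44. The error is Feature Extraction's own for its log ratio on both arrays, averaged over the probes of a gene. The differences come from the normalization used here, so error and difference are not on quite the same scale. The error covers the measurement of a spot and not the spread between cultures, since each condition had 1 array. As folds they were 2.68-fold and 2.39-fold lower, and only 0.104% of genes had a lower value than Gm10639. Nqo1 followed with -0.82 ± 0.33. In bulk RNA such as this, fewer cells of a type and less RNA per cell cannot be told apart. Of the 10 members 7 were lower and 3 higher, with a median of -0.45 against 0.02 over all genes, and all 7 of the lower ones exceeded their error. How many of all genes exceeded their own error was not counted. Such counts, here and below, therefore only describe the members. With each array centred on its median in place of loess, only 2 were lower. Gstm1 (1.38) and Gstm2 (1.29) then passed 2-fold on the higher side in place of Gm10639 and Gm3776. Of all 13400 genes 6635 were at least 2-fold higher there too. That scaling moved the median of all genes by 0.97, and relative to it 8 of 10 were lower, 2 of them at least 2-fold. On Cy5 alone Nqo1 also passed 2-fold, at -1.28, where 196 of 13400 genes were at least 2-fold lower.

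With serotonin none of the members reached 2-fold, where 0.728% of all genes were at least 2-fold lower and 0.515% at least 2-fold higher. The largest values lay just inside that limit: -0.99 ± 0.44 for Gm3776, -0.95 ± 0.33 for Nqo1 and -0.92 ± 0.44 for Gm10639. With no background correction these 3 passed 2-fold, and with Feature Extraction's own processed signals or on Cy5 alone Gm10639 and Gm3776 did. Of all 13590 genes, 119, 243 and 202 in the same order were then at least 2-fold lower. Again 7 members were lower and 3 higher, with a median of -0.32. With no background correction or on Cy5 alone 8 were lower, and under median centring 2 were lower as such and 6 relative to a shift of 1.07 in the median of all genes.

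With cortisol all 10 members were higher in treated than in untreated 3T3-L1 cells, and remained so under each of the 4 other signal treatments, but none reached 2-fold. Over all genes the share past 2-fold was 0.416% on the higher side and 1.23% on the lower side. The members had a median of 0.41 against 0.01 over all genes, and 6 exceeded their error. Gsta4 was the highest at 0.74 ± 0.43, followed by Gm3776 at 0.63 ± 0.53, Gm10639 at 0.60 ± 0.52 and Nqo1 at 0.58 ± 0.38. Hmox1 was the lowest of them at 0.12 ± 0.36.

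The combination was also set against each hormone alone. All 10 members were lower with cortisol-serotonin than with cortisol, 3 of them at least 2-fold, where 0.508% of all genes passed 2-fold on the lower side and 1.35% on the higher side. Gm10639 differed by -2.02 ± 0.46, Gm3776 by -1.89 ± 0.48 and Nqo1 by -1.39 ± 0.36, and the median was -0.71. Between cortisol-serotonin and serotonin none reached 2-fold (0.0749% of all genes did on the lower side and 0.0225% on the higher side) and the median was -0.07. These comparisons share arrays with those above, so their values stand side by side and none is independent of the others.

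The hormone labels bear on how these values read. Of 10 measured genes that glucocorticoids are known to induce, 5 were higher on the 3T3-L1 array labelled cortisol, 9 on that labelled serotonin and 8 on that labelled cortisol-serotonin, with medians of -0.05, 0.78 and 0.78. In RAW264.7 cells 1 of 8 was higher with cortisol, 7 with serotonin and 5 with cortisol-serotonin, with medians of -0.21, 0.35 and 0.09. Among these genes, Fkbp5 had log2 differences from untreated 3T3-L1 cells of 0.14 with cortisol, 1.31 with serotonin and 1.44 with cortisol-serotonin. Zbtb16 had -0.19, 1.94 and 1.96 in the same order, Tsc22d3 -1.06, 0.41 and 0.77, and Per1 -0.41, 0.39 and 0.62. Others of the list ran differently. Ddit4 had 0.77, 0.76 and -0.03 in the same order, and Errfi1 -1.59, -0.04 and -0.10. Pdk4 was higher on all of them, with 0.74, 1.42 and 1.53. The arrays labelled serotonin and cortisol-serotonin had log ratios that correlated at 0.983 over 13172 probes, a description of arrays on 1 slide. Conditions are named here as labelled, and whether the labels of cortisol and serotonin were exchanged was not tested.

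**Figure D2:**
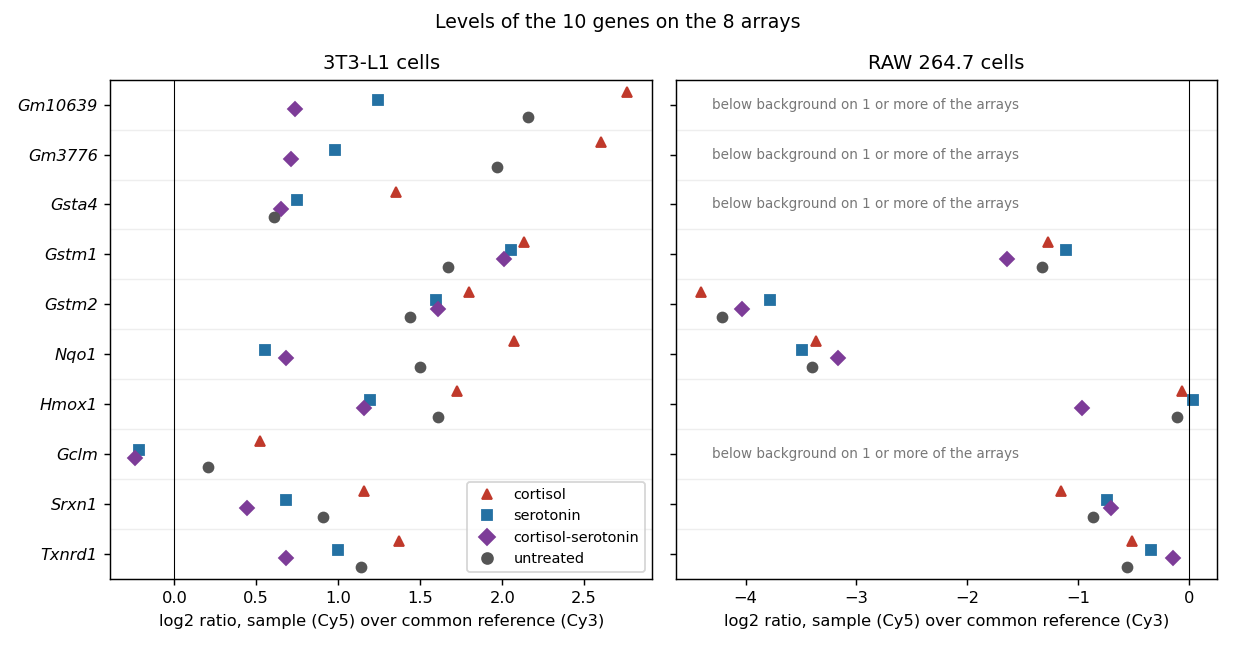
log2 ratio of the sample (Cy5) to the common reference (Cy3) for each member on each array, with 3T3-L1 cells on the left and RAW264.7 cells on the right; a symbol is 1 array. In 3T3-L1 cells the cortisol array is the highest for all 10 members, and 6 members share the order cortisol, untreated, serotonin, cortisol-serotonin. The shares of all genes with these orders were not counted.

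The order of the 4 arrays of 3T3-L1 cells was cortisol, untreated, serotonin and then cortisol-serotonin for 6 members, namely Gm10639, Gm3776, Hmox1, Gclm, Srxn1 and Txnrd1. How many of all genes had this order, or were highest with cortisol, was not counted, so the order only describes the members. For Gstm1, Gstm2, Hmox1, Srxn1 and Txnrd1 the cortisol array stood above the next array by less than the error. Nqo1 differed only in that cortisol-serotonin stood above serotonin, by 0.13 on the log2 scale, less than its error of 0.30. For Gm10639 every gap between neighbours exceeded its error. For Gm3776 the gap of 0.27 between serotonin and cortisol-serotonin did not exceed its error of 0.37. For Srxn1 no neighbours differed by more than the error, although its whole range of 0.71 exceeded the error of 0.31.

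The other transferases had another order. Gsta4, whose enzyme acts on the lipid peroxidation product 4-hydroxynonenal, had log2 ratios of 1.35 with cortisol, 0.75 with serotonin, 0.65 with cortisol-serotonin and 0.61 in untreated cells. Its probe was printed several times on each array, and the SD over its 9 spots kept was 0.08 with cortisol, 0.08 with serotonin, 0.10 with cortisol-serotonin and 0.06 in untreated cells. The cortisol array lay above all spots of the other arrays, and the spots of those 3 arrays overlapped. Gstm1 had 2.13 with cortisol, 2.05 with serotonin, 2.01 with cortisol-serotonin and 1.67 in untreated cells. Its 2 probes both put the untreated array lowest. Gstm2, with 3 probes, spanned only 1.44 in untreated cells to 1.80 with cortisol. For both mu-class genes no neighbours in the order differed by more than the error. Gstm1 and Gstm2 belong to a family of close relatives, and their probes may share transcripts.

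Nqo1, the quinone reductase used most often to read NRF2 activity, had log2 ratios of 2.07 with cortisol, 0.55 with serotonin, 0.68 with cortisol-serotonin and 1.5 in untreated 3T3-L1 cells. Its arrays fell into a higher pair, cortisol and untreated, and a lower pair, serotonin and cortisol-serotonin. The gaps between the cortisol and untreated arrays (0.58) and between the untreated and cortisol-serotonin arrays (0.82) were both larger than the error.

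Hmox1, which breaks haem into biliverdin, iron and carbon monoxide, had 1.73 with cortisol, 1.19 with serotonin, 1.16 with cortisol-serotonin and 1.61 in untreated cells. Its 2 probes kept the same direction with serotonin (-0.50 and -0.33) and with cortisol-serotonin (-0.70 and -0.20).

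Gclm, the modifier subunit of the ligase that sets the rate of glutathione synthesis, had 0.52 with cortisol, -0.22 with serotonin, -0.24 with cortisol-serotonin and 0.21 in untreated cells. Its reference channel was unsteady: the Cy3 signal was 662 units with cortisol, 613 with serotonin, 618 with cortisol-serotonin and 407 in untreated cells. On Cy5 alone Gclm was higher with serotonin (0.22) and cortisol-serotonin (0.13) than in untreated cells, so the direction of Gclm rests on the reference.

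Srxn1, which reduces over-oxidised peroxiredoxins, had 1.16 with cortisol, 0.68 with serotonin, 0.45 with cortisol-serotonin and 0.91 in untreated cells. Txnrd1, the cytosolic thioredoxin reductase, had 1.37 with cortisol, 1.00 with serotonin, 0.68 with cortisol-serotonin and 1.14 in untreated cells. Cortisol-serotonin was the lowest array for both, at -0.46 ± 0.31 from untreated cells for each gene, and their differences with cortisol or serotonin alone did not exceed the error.

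**Figure D3:**
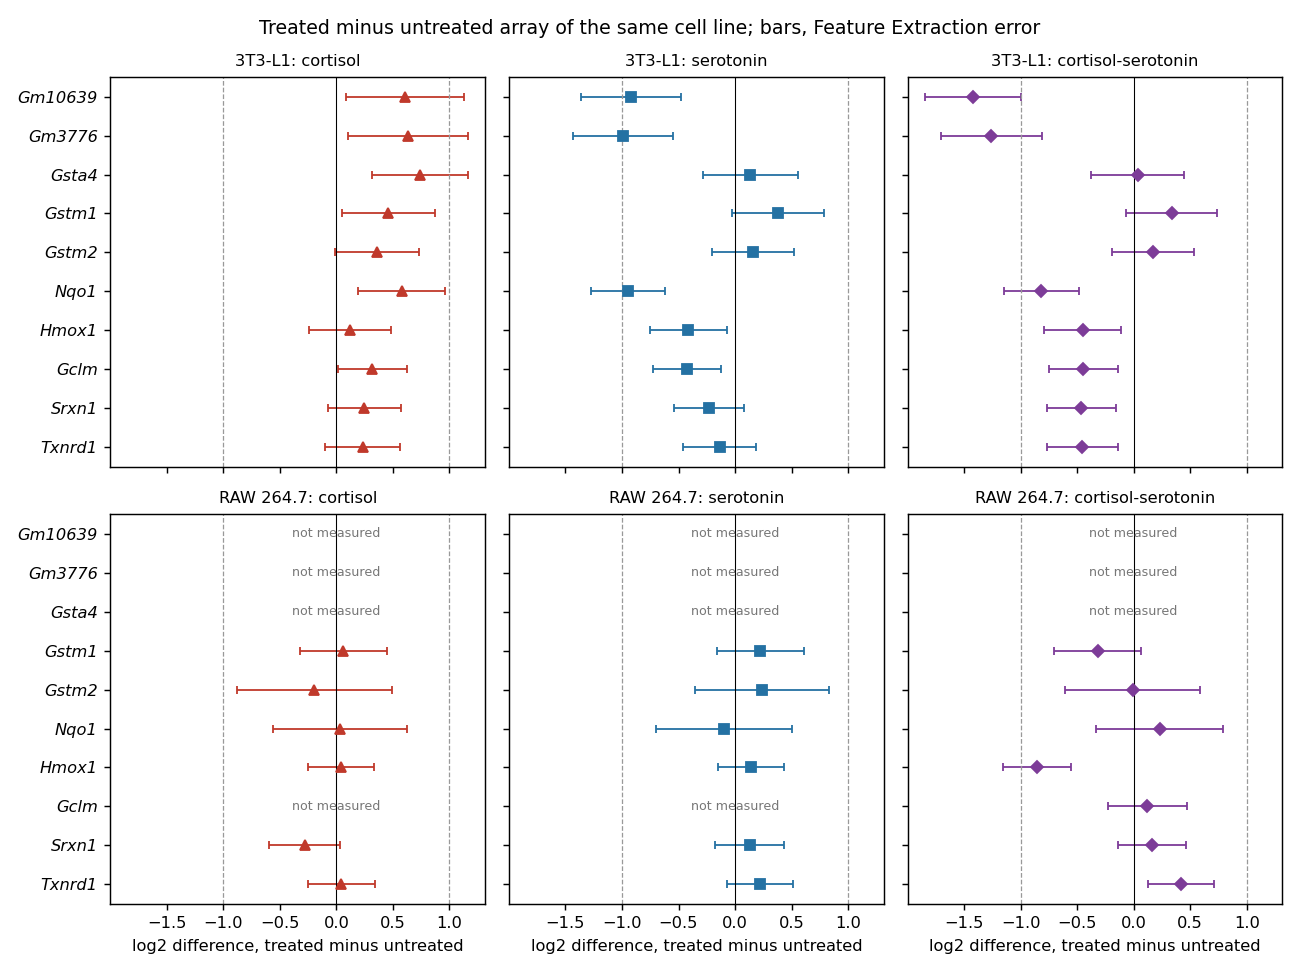
log2 difference of each member between each treated array and its untreated counterpart; bars are the error of Feature Extraction over both arrays, not a spread over replicates, and dashed lines mark 2-fold. Only Gm10639 (-1.42) and Gm3776 (-1.26) with cortisol-serotonin in 3T3-L1 cells lie past 2-fold.

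In RAW264.7 cells fewer members could be measured: 6 of 10 with cortisol, 6 with serotonin and 7 with cortisol-serotonin were above background in both channels on the treated and the untreated array. None reached 2-fold. Of all genes, 0.0453% were at least 2-fold lower with cortisol, 0.276% with serotonin and 0.0749% with cortisol-serotonin, and 0.0377%, 0.638% and 0.18% in the same order were at least 2-fold higher. With cortisol and with serotonin no member exceeded its error. With cortisol-serotonin Hmox1 and Txnrd1 did.

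Hmox1 had log2 ratios in RAW264.7 cells of -0.06 with cortisol, 0.04 with serotonin, -0.96 with cortisol-serotonin and -0.10 in untreated cells. The cortisol-serotonin array stood apart below the other arrays, at -0.86 ± 0.30 from untreated cells, and only 0.142% of genes had a lower value there. Both of its probes were low on that array, with log2 ratios of -1.02 and -0.90. On the same array 9 of 12 measured macrophage markers were lower than in untreated RAW264.7 cells (median -0.31, Spi1 -1.21) and 6 of 7 fibroblast and pre-adipocyte markers higher (median 0.40, Fstl1 1.17), and 8 of 14 markers of this second list were above background in Cy5, against 10 of 14 on the untreated array. The summed Cy5 signal of the macrophage list was 157772 units with cortisol-serotonin and 154438 units untreated. That of the fibroblast and pre-adipocyte list was 2806 units with cortisol-serotonin and 4966 units untreated, the other way from its log2 differences. The part of either cell type in the values of Hmox1 and Txnrd1 was not tested. Txnrd1 had -0.51 with cortisol, -0.34 with serotonin, -0.14 with cortisol-serotonin and -0.56 in untreated cells. Its difference of 0.42 ± 0.29 with cortisol-serotonin was opposite in sign to that in 3T3-L1 cells (-0.46), except under median centring, where the value in 3T3-L1 cells was 0.76 (-0.23 relative to all genes). Gstm1 had -1.27 with cortisol, -1.10 with serotonin, -1.64 with cortisol-serotonin and -1.33 in untreated cells, and Gstm2 -4.41, -3.78, -4.03 and -4.21 in the same order. No neighbours in the order of either gene differed by more than the error. Nqo1 ranged only from -3.49 with serotonin to -3.17 with cortisol-serotonin, with -3.40 in untreated cells, and Srxn1 from -1.15 with cortisol to -0.70 with cortisol-serotonin, with -0.87 in untreated cells.

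Gsta4 and Gclm were measured on some RAW264.7 arrays only. Gsta4 was above background with serotonin, where its Cy5 signal was 120 units, and not on the other 3 arrays, where it was 43.1 to 53.6 units. That is at least 1.45-fold higher with serotonin than in untreated cells, as a bound from the Cy5 channel (1.49-fold with Cy5 quantile-normalised on its own). On the same array 10 of 14 fibroblast and pre-adipocyte markers were above background in Cy5, and 10 of 14 on the untreated array (Col1a1, Pdgfra, Lum and Postn were below it with serotonin). Their summed Cy5 signal was 3463 units with serotonin and 4966 units untreated, while the median log2 difference of the 9 markers measured in both channels was 0.70 and that of Col3a1 was 2.0. Their part in the value of Gsta4 was not tested. Gclm was above background in both channels with cortisol-serotonin and in untreated cells only, with a log2 difference of 0.12 ± 0.35.

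The rest of the glutathione and NRF2 pathway was read from lists of genes, which were chosen with earlier results of these data known. Of 26 listed glutathione transferases (members included) 25 had a probe. In 3T3-L1 cells 20 of 22 measured were higher with cortisol, 15 of 23 with serotonin and 12 of 21 with cortisol-serotonin, and the medians were 0.38, 0.12 and 0.09. Only Gm10639 and Gm3776 passed 2-fold. Gsta3, another alpha-class gene, had 0.36 with cortisol, -0.25 with serotonin and -0.31 with cortisol-serotonin. The mu-class gene Gstm4 had 0.55, 0.75 and 0.68 in the same order. Mgst1, a microsomal transferase, passed 2-fold in RAW264.7 cells with serotonin at 1.04.

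Of 21 genes for the synthesis, recycling and export of glutathione 18 were measured in 3T3-L1 cells, with medians of -0.03 with cortisol, -0.20 with serotonin and -0.10 with cortisol-serotonin. Gclc, the catalytic partner of Gclm, had -0.16 with cortisol, 0.55 with serotonin and 0.84 with cortisol-serotonin, each opposite in sign to the ratio of Gclm. Chac1 and Chac2, which degrade glutathione, passed 2-fold once each: Chac1 at -1.37 with serotonin and Chac2 at -1.05 with cortisol. Of 17 thioredoxin and peroxiredoxin genes none passed 2-fold in any comparison, and with cortisol-serotonin Srxn1 was the lowest of them in 3T3-L1 cells.

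Among 29 other NRF2 targets (Nqo1 and Hmox1 included) 28 had a probe, and the medians in 3T3-L1 cells were 0.09 with cortisol, -0.07 with serotonin and -0.10 with cortisol-serotonin. Ugdh, which makes UDP-glucuronate for conjugation, was the lowest in each, at -1.51, -1.26 and -1.28. Trib3, a pseudokinase gene also driven by amino acid stress, had -1.23 with serotonin. Akr1b3, an aldose reductase, had 0.81, 1.01 and 0.79 and so ran against Nqo1 with serotonin and cortisol-serotonin. Mt2, a metallothionein, had 1.01 in RAW264.7 cells with serotonin. Its log2 ratio was 2.76 higher in 3T3-L1 than in RAW264.7 cells, and the part of 3T3-L1 RNA in its value was not tested. The NADPH-generating enzymes (10 of 11 measured) had medians of 0.20, 0.05 and 0.04 and the glutathione peroxidases, of which 2 or 3 of 8 were measured, 0.19, -0.05 and -0.13, with none past 2-fold in either list. The 18 regulators of NRF2 had medians of 0.08, 0.05 and 0.13 over the 14 or 15 measured, also with none past 2-fold. Of them Keap1 had -0.14, -0.63 and -0.38 in 3T3-L1 cells, and Nfe2l2, which encodes NRF2, had 0.02 with serotonin and 0.11 with cortisol-serotonin and was not measured with cortisol.

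**Figure D4:**
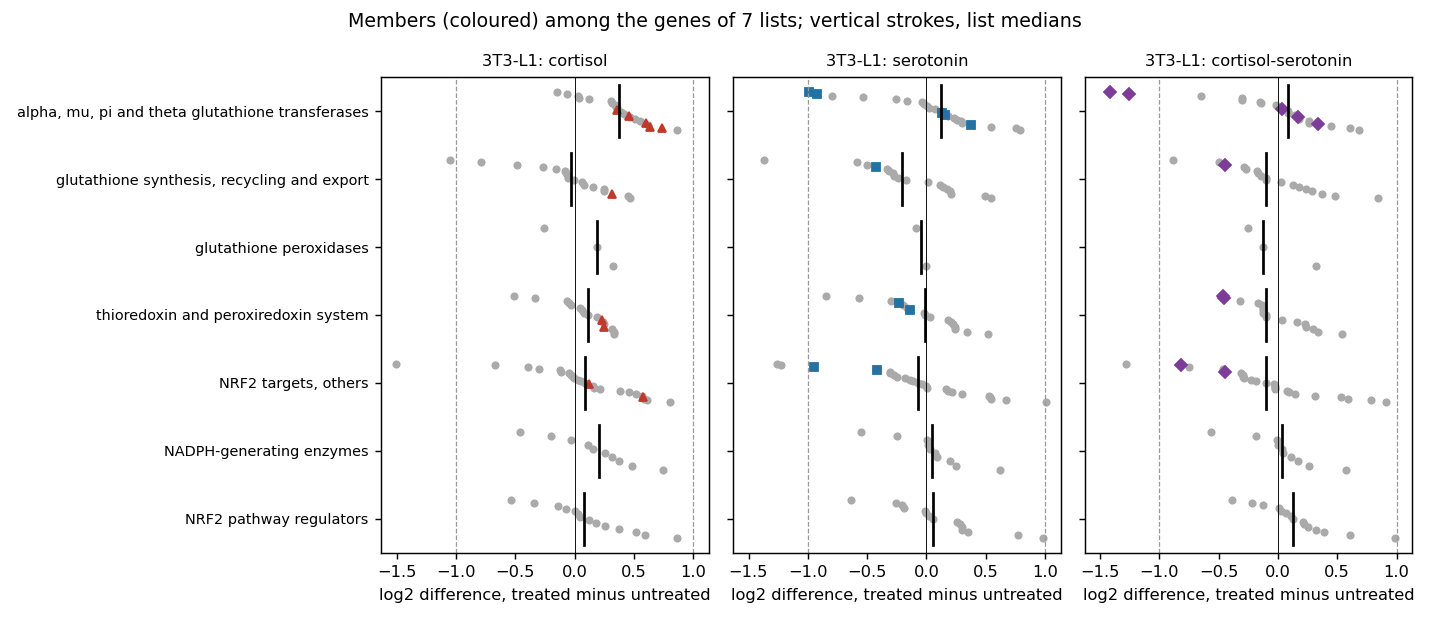
log2 differences from the untreated array in 3T3-L1 cells for the genes of 7 lists; each point is a gene, coloured points are members, vertical strokes are list medians and dashed lines mark 2-fold. With cortisol-serotonin the transferase list had a median of 0.09 while Gm10639 lay at -1.42 and Gm3776 at -1.26.

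Markers of the other cell line were low in 3T3-L1 cells, and most were lower on each treated array than on the untreated one. Of 14 macrophage markers with a probe, 11 to 12 were above background in Cy5 on the 3T3-L1 arrays, and Adgre1 and Spi1 on none of them. Their summed Cy5 signal in 3T3-L1 cells was 8270 units with cortisol, 8061 with serotonin, 11443 with cortisol-serotonin and 7486 untreated, and on the RAW264.7 arrays it was 108989 to 157772 units. All 9 measured markers were lower with serotonin than in untreated 3T3-L1 cells (median -0.47), 8 of 9 with cortisol-serotonin (median -0.36) and 8 of 10 with cortisol (median -0.14). Gm10639 and Gm3776 were below background in RAW264.7 cells themselves, and the part of such RNA in the other members' values was not tested. Of 12 adipocyte markers 3 to 5 were above background on the 3T3-L1 arrays, and Adipoq and Plin1 on none. Fabp4 had log2 differences of -0.01 with cortisol, 2.24 with serotonin and 2.45 with cortisol-serotonin.

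The cell lines could be tested against each other, since each had 4 arrays and the rule for choosing members did not use this contrast. However, all 10 members were above background on every 3T3-L1 array but not on every RAW264.7 array. The choice may thus have favoured genes expressed in 3T3-L1 cells. The direction of the calls and of the bounds below is then not independent of it. The limma fit compared 3T3-L1 with RAW264.7 cells over 10995 genes measured on all 8 arrays, with treatment as a covariate. Of all genes 74.3% were called at an adjusted p under 0.05, 38% higher and 36.3% lower in 3T3-L1 cells, so a call by itself sets no gene apart. All 6 of the 10 members that could be tested were called, each higher in 3T3-L1 cells, with a median log2 difference of 2.50 against 0.04 over all genes. The arrays of the lines did not overlap for any of the 6, nor for 70.2% of all genes. Cell line, co-culture set-up and slide coincide, so they cannot be told apart, and nothing in the sources says that the arrays of a line came from separate cultures.

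Gstm2 differed most. Its log2 ratios averaged 1.5 ± 0.13 in 3T3-L1 cells and -4.11 ± 0.27 in RAW264.7 cells (SD, n = 4 arrays each, over 2 probes), a difference of 5.61 ± 0.13 (SE) with a limma adjusted p of 1.9e-10. Nqo1 averaged 1.20 ± 0.72 in 3T3-L1 cells and -3.36 ± 0.14 in RAW264.7 cells, a difference of 4.56 ± 0.23 with an adjusted p of 2.9e-08. Gstm1 averaged 1.97 ± 0.20 in 3T3-L1 cells and -1.34 ± 0.23 in RAW264.7 cells, which was 9.86-fold higher. Hmox1, Srxn1 and Txnrd1 differed less, by 1.69 ± 0.15, 1.66 ± 0.17 and 1.44 ± 0.16, and the largest adjusted p of the 6 was 1.7e-05 for Txnrd1. Each of the 6 calls held under every alternative tried, including leaving out any 1 array. With treatment in the fit, leaving out an array also takes its counterpart of the other line out of the comparison. These runs thus repeat each other in pairs.

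**Figure D5:**
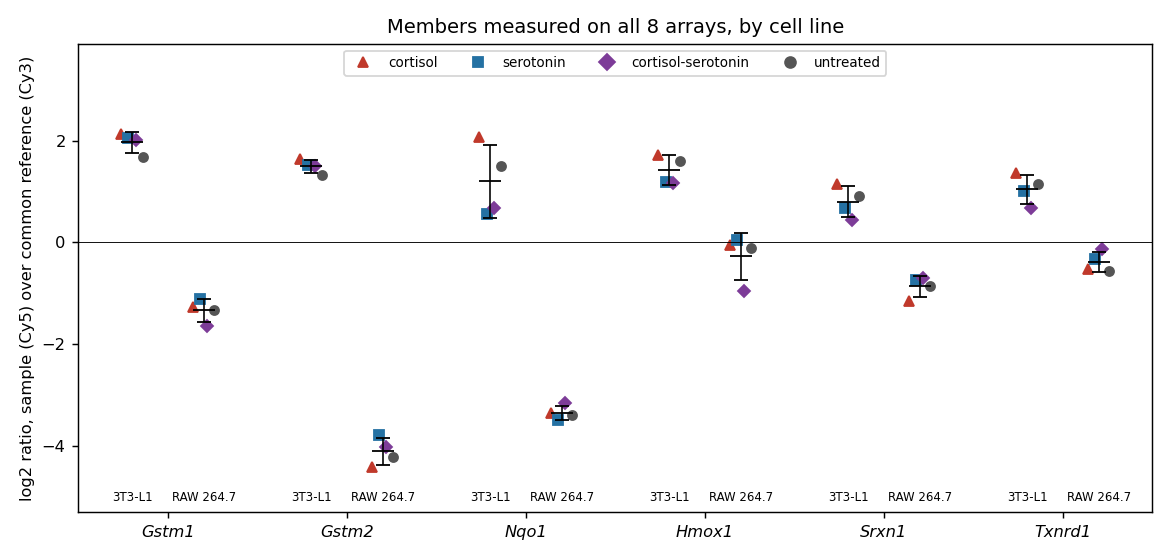
log2 ratio to the common reference of the 6 members measured on all 8 arrays, 3T3-L1 cells to the left of RAW264.7 cells for each gene; symbols are arrays and bars the mean ± SD over 4 arrays. The lines did not overlap for any of the 6, as for 70.2% of all genes, and the gap was widest for Gstm2 (5.61) and narrowest for Txnrd1 (1.44).

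For genes too dim in RAW264.7 cells the Cy5 channel gives a bound. From the 3T3-L1 mean against the lowest signal well above background on each RAW264.7 array (or the probe's own, where higher), Gm10639 was at least 5.85-fold and Gm3776 at least 4.28-fold higher in 3T3-L1 cells with Cy5 taken after loess and Aquantile scaling. With Cy5 quantile-normalised on its own, a scaling added after seeing the data, the bounds were 5.27-fold and 4.01-fold, so they hold only for their scaling. Neither was tested, and a bound from 1 channel is open to dye bias because no dyes were swapped. Among other listed transferases the order of the lines was not uniform. Of 12 tested, members included, 9 were higher and 3 lower in 3T3-L1 cells, the highest besides Gstm2 being Gstm5 at 5.52. By contrast 7 of 9 tested enzymes that generate NADPH, the reductant of Nqo1 and Txnrd1, were lower in 3T3-L1 cells. All 9 tested macrophage markers were lower and all 7 tested fibroblast and pre-adipocyte markers higher in 3T3-L1 cells, with medians of -4.43 and 6.37.

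The genes whose pattern over the 4 arrays of 3T3-L1 cells was most like that of Gm10639 were looked for among 12962 genes by Pearson's r. With 4 points, which share a slide and a reference, many genes reach a high r by arithmetic alone, so this is a list and no finding. The first 5 were Dhx58, AK006445 (named as in the file), Lzic, Spink2 and Plrg1, with r of 0.998 to 1.00, but their ranges of 0.11 to 0.80 on the log2 scale were far smaller than the 2.02 of Gm10639. Gm3776, with a range of 1.89, had an r of 0.995 and ranked 32, and Srxn1 ranked 43, Hmox1 168, Gclm 184, Txnrd1 260 and Nqo1 389. Gstm2 and Gstm1 ranked 4629 and 6686.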

How the data were processed

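The 10 members and the gene lists were chosen with earlier results of these data known. The authors hybridised each sample (Cy5) with a common reference (Cy3) and extracted the scans in Feature Extraction, Agilent's software (10.5.1.1 in the submitters' processing notes, another version in the methods). The deposited scanner files hold median signal and background intensity per spot, without normalization between arrays; mean signals were planned for, and median signals were used instead. They also hold the authors' processed signal intensity and the log10 ratio of Cy5 to Cy3. The deposited error of that ratio, a score estimated by Feature Extraction, was combined over both arrays of a difference, and the deposited p-value of each ratio, from the authors' software, was not used. The deposited series matrix repeats that log10 ratio (within 0.005 for all 43020 spots of each array). Each treated array was set against the untreated array of its cell line, as in the methods, and a 2-fold difference was counted.

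Signals were corrected by normexp (offset 50) and log2 ratios normalised by loess within arrays (limma 3.58.1, R 4.3.3). Control spots and outlier flags were left out; no spot was saturated. A probe counted as measured where a share of over 0.5 of its spots were well above background in both channels, and a gene took the mean of its measured probes. Accessions were named through RefSeq (GRCm38.p6, names and neighbours only): 27508 of 39429 probes matched. Median Cy5 signals were 51 to 103 units over backgrounds of 26.5 to 28. Precision is limited by having 1 array for a condition, and p-values measure only the spread between these arrays. The cell lines were compared with limma (treatment as covariate, Benjamini-Hochberg over 10995 genes). The fit was tested on simulated data for that comparison with 10995 genes. It recovered 36% of 50 genes changed 1.5-fold, 76% at 2-fold and 100% at 4-fold. Only 50 genes were changed at each fold there, while 74.3% of genes were called in the data. The recovered shares therefore need not hold for the data. Named genes were the members, up to 6 genes per list past 2-fold, 4 glucocorticoid-induced genes and the 5 nearest in pattern to Gm10639; Gsta3, Gstm4, Gstm5, Gclc, Keap1 and Nfe2l2 were added after their values were seen. Promoters came from RefSeq (Biopython alignment). Alternatives changed the background correction, normalization, channel, filter, probe choice and arrays.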

Additional observations from a re-analysis of the deposited data

Results flagged for a closer look

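Txnrd1, the cytosolic thioredoxin reductase, differed from untreated cells in opposite directions in the cell lines under cortisol-serotonin, each by more than its error: by -0.46 in 3T3-L1 cells and by 0.42 in RAW264.7 cells. Each line had 1 treated and 1 untreated array, so the difference between the lines was not tested. With each array centred on its median the value in 3T3-L1 cells was 0.76 as such and -0.23 relative to the median of all genes. Of the 7 members measured in both lines with cortisol-serotonin, 6 had opposite signs, and of these only Txnrd1 exceeded its error in both. The other one, Hmox1, was lower beyond its error in both, by -0.45 in 3T3-L1 cells (0.78 as such under median centring) and -0.86 in RAW264.7 cells. With cortisol 2 of 6 members measured in both lines had opposite signs, and with serotonin 3 of 6. The share of all genes with opposite signs was not counted, so these counts set the members apart from no other genes.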

How the results depend on the processing

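With 3T3-L1 cells under serotonin, where no member passed 2-fold, 3 did on the lower side with no background correction (119 of all 13590 genes). On that side 2 did with Feature Extraction's processed signals (243 genes) and 2 on Cy5 alone (202 genes). With median centring 5 did on the higher side, as did 7559 of 13590 genes, so that count sets no member apart. Under cortisol, again with none, 6 passed on the higher side with median centring, where 2522 of 13718 genes did. On Cy5 alone 1 did (Gclm, 1.04), where 123 genes did. Under cortisol-serotonin the count of 2 became 1 with no filter on dim probes, where the dim second probe of Gm10639 entered its mean (-0.77), and 3 on Cy5 alone (with Nqo1). Median centring also gave 2, but Gstm1 and Gstm2 on the higher side. In RAW264.7 cells under cortisol-serotonin 1 (Gclm, 1.22) passed on Cy5 alone against 0. The difference of Gm10639 under cortisol-serotonin in 3T3-L1 cells ran from -1.93 to -0.64 and that of Gm3776 from -1.97 to -0.58, with the same sign in every setting. The causes were not tested.

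Median centring moved the median of all genes in 3T3-L1 cells by 0.58 with cortisol, 1.07 with serotonin and 0.97 with cortisol-serotonin. Of the changed genes there it put 99.8% or more on the higher side, against 25.2%, 41.4% and 55% in the same order by loess. Of the 49 member differences 18 changed sign under it, 8 on Cy5 alone, 5 with the processed signals, 3 with no background correction and 3 with the brightest probe. With the processed signals 168 genes were 2-fold higher and 436 lower with cortisol in 3T3-L1 cells, against 57 and 169. In RAW264.7 cells with serotonin the share on the higher side was 38.1% with those signals and 27.9% on Cy5 alone, against 69.8%.

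The 6 cell-line calls were unchanged under the alternatives tried, at 6 to 6 when any 1 array was left out. They also held without the cortisol and serotonin arrays, a setting chosen after seeing the data. Leaving out an array or its counterpart in the other line gave the same counts, so those runs are not separate checks. With no filter 9 of 10 members were called, and 11162 of 31483 genes. The members this added were not above background in both channels on every RAW264.7 array, so their calls add no support. Over all genes 4990 were called with median centring against 8169. The cell-line fit pairs the arrays by treatment, and without that term it called 8294 genes and 6 members. For treated against untreated cells no paired analysis was possible because each condition had 1 array per cell line. Members near background, as in RAW264.7 cells, are limited by signal over background.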
